A study of Mus musculus with 16 samples.

Results

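The mitochondrial genome's own transcripts were followed in mouse hypothalamus, together with Gm28438, a row of the count table whose counts moved against those of mt-Nd3. Members were all rows whose gene name starts with mt-, which gave 13 mRNAs, 22 tRNAs and 2 rRNAs, plus Gm28438, for 38 of 45706 rows. The working description of Gm28438 as a nuclear copy was not checked, because the RefSeq table used here gave that row neither a position nor a gene type.

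There were 16 libraries in 4 groups of 4: ribosome pulldown and input from pools with the genotype Pnoc Lepr deletion (pools 5 to 8), and pulldown and input from pools with the genotype Control (Lepr-flox) (pools 1 to 4). Each sample pooled hypothalami from 4 animals kept on a C57Bl/6N background, randomly fed on chow, and aged 12 weeks by the treatment protocol or 10 to 12 weeks by the extraction protocol. Both genotypes carried the L10a-bacTRAP allele, a Cre-dependent GFP-tagged large ribosomal subunit protein expressed in PNOC neurons, so that anti-GFP beads recover cytosolic ribosomes and their mRNA from these cells. The input was an aliquot of the same cleared lysate, taken before the beads were added and after debris had been spun out and detergent added. The labels do not say from which maternal lines the pools came.

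Mitochondrial DNA encodes subunits of respiratory complexes I, III, IV and V, the rRNAs of the mitochondrial ribosome and the tRNAs used to translate them. Its mRNAs are transcribed, processed and translated inside the organelle by a ribosome built separately from the cytosolic one, while all proteins needed for that expression are encoded in the nucleus and made on cytosolic ribosomes. It is inherited through the mother, and nuclear genomes hold inserted copies of its sequence.

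Library totals lay between 64435952 and 78623636 estimated counts. A count of 3 in a library, used here as the lower limit of detection, corresponded to 0.0324 to 0.0395 CPM in Lepr-deletion pulldown, 0.0469 to 0.0549 CPM in Lepr-deletion input, 0.0320 to 0.0345 CPM in control pulldown and 0.0485 to 0.0562 CPM in control input. These limits cover counting error only. Lepr was not lower in the Lepr-deletion libraries: its range was 2.42 to 2.82 CPM in Lepr-deletion pulldown against 1.42 to 1.86 CPM in control pulldown, and 4.78 to 8.14 CPM in Lepr-deletion input against 3.49 to 5.11 CPM in control input, so gene-level counts did not check the genotype labels. Pnoc was higher in pulldown than in input in both genotypes, at 6.96 to 9.29 CPM against 2.21 to 2.92 CPM in Lepr-deletion pools and 7.28 to 10.1 CPM against 2.55 to 2.97 CPM in control pools. CPM below are counts relative to library size after TMM scaling (trimmed mean of M values). Fold changes come from edgeR's quasi-likelihood fit, with p-values adjusted by Benjamini and Hochberg's method over every gene tested and a threshold of 0.05.

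The mitochondrial rRNAs and mRNAs were abundant in input and nearly absent from pulldown. Together the rows named mt- took 0.0852% ± 0.0012 of counts in Lepr-deletion pulldown and 28.4% ± 1.1 in Lepr-deletion input, and 0.0980% ± 0.013 in control pulldown and 31.7% ± 0.58 in control input (SD, n = 4 each). The 13 mRNAs made up 0.0203% ± 0.0012 of counts in Lepr-deletion pulldown and 3.90% ± 0.22 in Lepr-deletion input, and 0.0228% ± 0.0035 in control pulldown and 4.37% ± 0.054 in control input. In the comparison of pulldown with input, all 13 mRNAs and both rRNAs fell in each genotype, where 32.8% of all tested genes were called lower in Lepr-deletion pools and 34.6% in control pools. Of these rows, mt-Co3 and mt-Nd4l in both genotypes and mt-Nd3 in control pools passed the filter on low counts only through their input libraries, so that their falls were fixed by the filter. That leaves 11 mRNAs in Lepr-deletion pools and 10 in control pools, beside the rRNAs, that passed it on their pulldown libraries alone. The tested tRNAs, and Gm28438 in control pools, also passed only through input and are not counted here. The 13 mRNAs had a median log2 fold change of -8.41 in Lepr-deletion pools and -8.83 in control pools, beside medians of -0.01 and -0.02 over all genes tested in the same comparisons. All 4 pulldown libraries lay below all 4 input libraries for each of these mRNAs and rRNAs in both genotypes, as they did for 29.8% of all genes in Lepr-deletion pools and 31.2% in control pools.

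**Figure D1:**
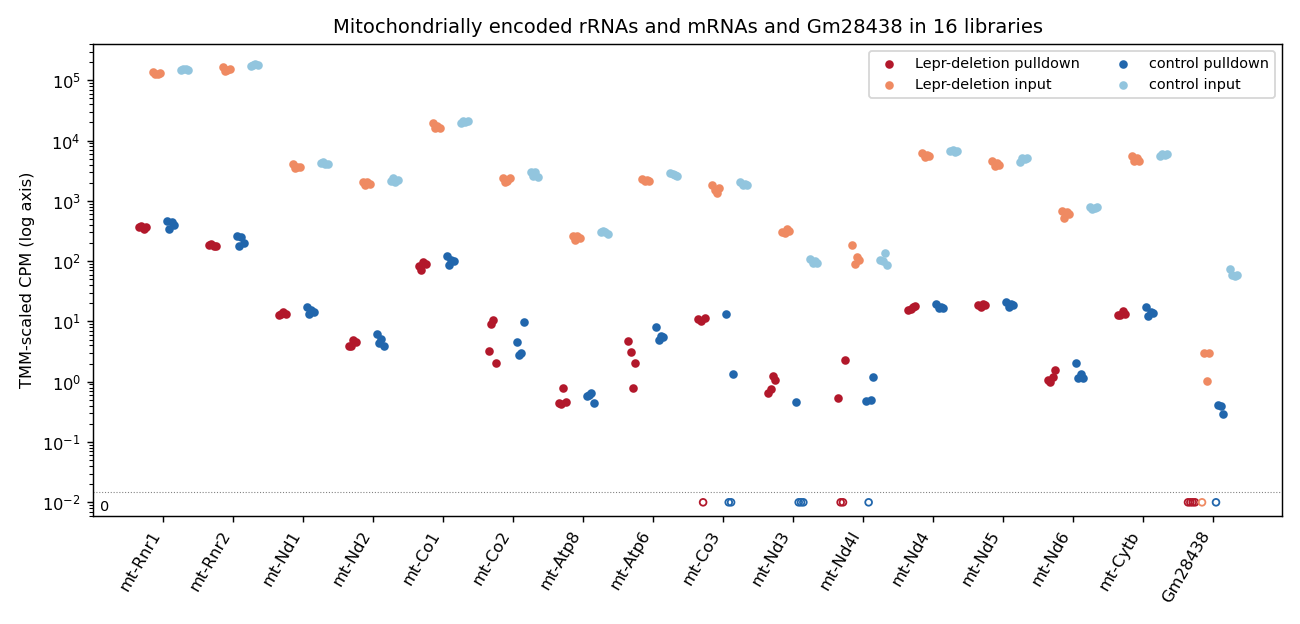
TMM-scaled CPM (log axis) of both rRNAs, the 13 mRNAs in genome order and Gm28438, with 1 point per library and the 4 groups side by side; open points below the dotted line are libraries with a value of 0. Both rRNAs and the 13 mRNAs lie far lower in pulldown than in input, mt-Co1 leads the mRNAs in all 4 groups, and mt-Nd3 and Gm28438 differ between genotypes in opposite directions.

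Leaving out the members and the rows that share reads with them, 33 genes in Lepr-deletion pools and 38 in control pools had a log2 fold change as low as that of mt-Co1 (-7.68 and -7.65), the least depleted of the mRNAs and rRNAs that share no counts with another row. Markers of other cell types also fell in pulldown, but by less. All 10 astrocyte markers fell in each genotype, with a median of -3.85 in Lepr-deletion pools and -4.13 in control pools, and so did all 10 oligodendrocyte markers (-4.13 and -4.22) and all 10 microglia markers (-4.32 and -4.44). Summed astrocyte markers still reached 385 to 427 CPM in Lepr-deletion pulldown against 2933 to 3166 CPM in Lepr-deletion input, and 381 to 411 CPM in control pulldown against 3217 to 3600 CPM in control input. Summed oligodendrocyte markers reached 131 to 162 CPM in Lepr-deletion pulldown against 1104 to 1503 CPM in input, and 125 to 145 CPM in control pulldown against 1183 to 1513 CPM in input. Summed microglia markers reached 10.2 to 11.3 CPM in Lepr-deletion pulldown against 71.8 to 81.9 CPM in input, and 12.4 to 12.8 CPM in control pulldown against 75.8 to 89.2 CPM in input. No marker of these lists was at 0 throughout a group. All 10 neuron markers rose in pulldown, with medians of 0.62 and 0.64, and their sums were 14926 to 15307 CPM in Lepr-deletion pulldown against 8249 to 9126 CPM in input and 15250 to 16320 CPM in control pulldown against 8292 to 8770 CPM in input. The part of these cell types in the mitochondrial values was not tested, and in pooled tissue fewer cells of a type and less RNA per cell cannot be told apart.

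The rRNAs were the most abundant members in every group. mt-Rnr1 (ENSMUSG00000064337, chromosome MT 70 to 1024 in GRCm38.p6, 955 bases) encodes the rRNA of the small mitochondrial ribosomal subunit. It had 374, 384, 346 and 363 CPM in Lepr-deletion pulldown (pools 5 to 8) against 139782, 125647, 126858 and 131081 CPM in Lepr-deletion input. The control pools, 1 to 4, gave 456, 344, 446 and 398 CPM in pulldown against 148160, 153178, 155256 and 145471 CPM in input. The groups were separated by more than 2 orders of magnitude, with a log2 fold change of -8.49 (SE 0.057, edgeR adjusted p = 1.67e-18) in Lepr-deletion pools and -8.53 (SE 0.10, adjusted p = 1.44e-13) in control pools.

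mt-Rnr2 (ENSMUSG00000064339, chromosome MT 1094 to 2675, 1582 bases), the rRNA of the large subunit, lies just past mt-Rnr1, with mt-Tv between them. It had 187, 190, 181 and 179 CPM in Lepr-deletion pulldown against 168117, 144530, 147049 and 151388 CPM in Lepr-deletion input. The control pools gave 257, 179, 249 and 198 CPM in pulldown against 175091, 180849, 184273 and 182042 CPM in input. It fell further than mt-Rnr1, with a log2 fold change of -9.71 (SE 0.064, edgeR adjusted p = 1.67e-18) in Lepr-deletion pools and -9.70 (SE 0.14, adjusted p = 4.91e-13) in control pools.

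The balance of the rRNAs therefore differed between fractions. The ratio of mt-Rnr1 to mt-Rnr2 counts was 1.99 ± 0.053 in Lepr-deletion pulldown and 0.857 ± 0.017 in Lepr-deletion input, and 1.88 ± 0.11 in control pulldown and 0.834 ± 0.023 in control input (SD, n = 4 each). The lowest pulldown ratio was 1.78 and the highest input ratio was 0.869, so the fractions did not overlap. The ratio of summed rRNA to summed mRNA counts was also lower in pulldown, at 3.21 ± 0.30 against 6.29 ± 0.23 in input for Lepr-deletion pools and 3.31 ± 0.29 against 6.25 ± 0.16 in input for control pools. These ratios are descriptions and were not tested.

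Among the mRNAs, levels between genes were compared per length, in TPM. mt-Co1, the catalytic core subunit of cytochrome c oxidase (complex IV), was highest in all 4 groups, with 156 ± 22 TPM in Lepr-deletion pulldown against 16893 ± 1170 in Lepr-deletion input and 184 ± 23 TPM in control pulldown against 18627 ± 731 in control input. In input the next rows were mt-Cytb, the cytochrome b of complex III, with 6890 ± 472 TPM in Lepr-deletion pools and 7543 ± 202 in control pools, then mt-Nd1, mt-Nd4, mt-Atp6 and mt-Co2 in both genotypes, at means between 5972 and 6919 TPM. The neighbours from mt-Nd4 to mt-Nd1 in control input, at 6919 ± 236 and 6785 ± 219 TPM, differed by less than their SD. mt-Nd6, the complex I subunit that lies across the end of mt-Nd5, had 2417 ± 194 TPM in Lepr-deletion input and 2797 ± 118 in control input. The row for mt-Nd3 was last of the 13 in control input at 628 ± 51 TPM, while in Lepr-deletion input mt-Nd4l was last at 1038 ± 329 TPM and mt-Nd3 had 2132 ± 160 TPM. The places of mt-Co2, mt-Co3, mt-Atp6, mt-Nd3 and mt-Nd4l hold for the rows as deposited, because each shared its counts with another row, as described below.

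The loss in pulldown differed among the mRNAs. mt-Co1 (ENSMUSG00000064351, chromosome MT 5328 to 6872) had the smallest fall of the 8 mRNAs with no such partner row. It had 83.6, 72.3, 95.4 and 90.7 CPM in Lepr-deletion pulldown against 19507, 16442, 17600 and 15983 CPM in Lepr-deletion input, a log2 fold change of -7.68 (SE 0.11, edgeR adjusted p = 4.56e-15). It had 121, 85.9, 103 and 102 CPM in control pulldown against 19337, 20822, 20442 and 21381 CPM in control input, a log2 fold change of -7.65 (SE 0.11, adjusted p = 4.55e-13). The values of the genotypes thus lay within 1 SE of each other.

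mt-Nd5 (ENSMUSG00000064367, chromosome MT 11742 to 13565), a proton-pumping subunit of complex I and the longest of the mRNAs at 1824 bases, came next. It had 18.5, 17.5, 19.6 and 18.9 CPM in Lepr-deletion pulldown against 4515, 3742, 4267 and 3998 CPM in Lepr-deletion input, and fell by 7.80 on the log2 scale (SE 0.078). It had 20.7, 17.6, 19.5 and 18.4 CPM in control pulldown against 4387, 5181, 4873 and 5199 CPM in control input, and fell by 8.03 (SE 0.084). The pulldown libraries of the genotypes overlapped, and the control input libraries reached higher than those with Lepr deletion.

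mt-Nd6 (ENSMUSG00000064368, chromosome MT 13552 to 14070) stood at the other end. It had 1.09, 0.995, 1.21 and 1.55 CPM in Lepr-deletion pulldown against 684, 529, 643 and 606 CPM in Lepr-deletion input, and fell by 9.01 on the log2 scale (SE 0.13). It had 2.02, 1.18, 1.33 and 1.18 CPM in control pulldown against 790, 738, 755 and 789 CPM in control input, and fell by 9.09 (SE 0.14). mt-Nd6 is the only mitochondrial mRNA encoded on the opposite strand, and its annotated end shares 14 bases with mt-Nd5. The deposited counts state no use of strand, so reads from the shared bases could not be assigned by strand here. The ratio of mt-Nd6 to mt-Nd5 counts was 0.0649 ± 0.012 in Lepr-deletion pulldown and 0.149 ± 0.0050 in Lepr-deletion input, and 0.0741 ± 0.016 in control pulldown and 0.157 ± 0.016 in control input (SD, n = 4 each), without overlap between fractions.

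The other mRNAs without a partner row lay between these ends. mt-Nd1, a core complex I subunit, had log2 fold changes of -8.13 in both genotypes (SE 0.073 with Lepr deletion and 0.091 in control). mt-Nd4, a further proton-pumping subunit, was at -8.41 (SE 0.080) in Lepr-deletion pools and -8.58 (SE 0.074) in control pools. mt-Cytb was at -8.55 (SE 0.091) with Lepr deletion and -8.67 (SE 0.12) in control, and mt-Nd2, again of complex I, at -8.81 (SE 0.092) and -8.83 (SE 0.13). All of these falls passed the test. mt-Atp8, a small ATP synthase subunit whose reading frame overlaps mt-Atp6 by 43 bases, also fell, at -8.87 (SE 0.13) with Lepr deletion and -9.05 (SE 0.085) in control. Its counts in pulldown were few, at 37, 39, 69 and 35 in Lepr-deletion pools and 50, 57, 57 and 41 in control pools, against 14175 to 15573 in Lepr-deletion input and 16445 to 18771 in control input. The order of these mRNAs, from mt-Co1 and mt-Nd5 through mt-Nd1, mt-Nd4, mt-Cytb, mt-Nd2 and mt-Atp8 to mt-Nd6, was the same in both genotypes, with neighbours such as mt-Nd2 and mt-Atp8 closer than their SE in Lepr-deletion pools.

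**Figure D2:**
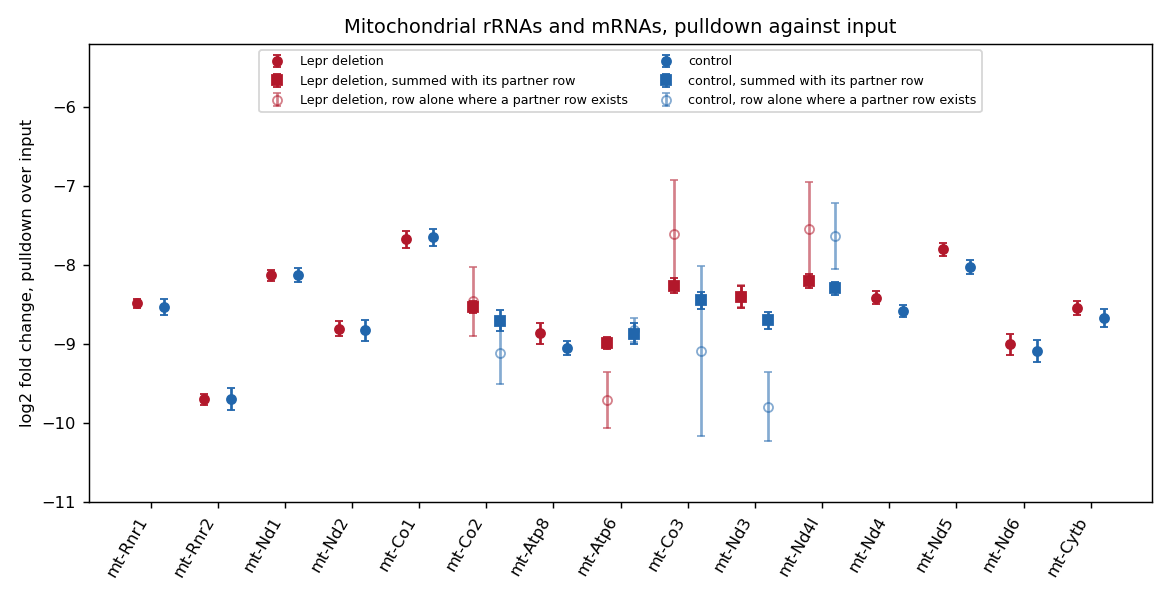
Log2 fold change of pulldown over input (y axis) for both rRNAs and the 13 mRNAs in genome order, by genotype; bars are ± 1 SE of the edgeR fit. Squares give an mRNA row summed with its partner row and open circles the same row alone. With partner rows summed, the mRNAs run from -7.68 (mt-Co1) to -9.01 (mt-Nd6) in Lepr-deletion pools and from -7.65 to -9.09 in control pools, and mt-Rnr2 is below all of them at -9.71 and -9.70.

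For 5 of the mRNAs, counts moved between the mt- row and another row of the table. These partner rows, chosen after their values were seen, were Gm28661 for mt-Co2, Gm10925 for mt-Atp6, Gm28437 for mt-Co3, Gm10222 for mt-Nd4l and Gm28438 for mt-Nd3. The effective length given for each partner was 98.6% to 99.8% of its member's. RefSeq lists Gm10222 (chromosome 1, 24612404 to 24612700, 297 bases) and Gm10925 (chromosome 1, 24613971 to 24614651, 681 bases) as pseudogenes of the same lengths as ND4L and ATP6 on chromosome MT, and gives mt-Atp6 as a synonym of Gm10925. The values of these members are therefore uncertain where the row alone is used.

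mt-Co3, a core subunit of complex IV (ENSMUSG00000064358, chromosome MT 8607 to 9390), shows the exchange. In Lepr-deletion pulldown it had 919, 939, 0 and 867 estimated counts where Gm28437 had 0, 0, 1018 and 0, and in control pulldown it had 1137, 0, 0 and 121 where Gm28437 had 182, 989, 1063 and 996. Their sum ran from 867 to 1018 in Lepr-deletion pulldown and from 989 to 1319 in control pulldown. The coefficient of variation of the counts was 66.8% for mt-Co3 and 6.70% for the sum in Lepr-deletion pulldown, and 175% and 12.6% in control pulldown. In input both rows were filled in every library, and mt-Co3 held 38.8% to 51.4% of the sum in Lepr-deletion pools and 42.7% to 47.1% in control pools.

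mt-Co2, which carries the copper site that takes electrons from cytochrome c, had 270, 848, 924 and 157 counts in Lepr-deletion pulldown and 405, 257, 256 and 890 in control pulldown. Its sums with Gm28661 ran from 775 to 924 in Lepr-deletion pulldown and from 771 to 1139 in control pulldown. mt-Atp6, the proton-channel subunit of ATP synthase, had 395, 284, 69.2 and 153 counts in Lepr-deletion pulldown and 717, 466, 503 and 505 in control pulldown. With Gm10925 it summed to 348 to 432 in Lepr-deletion pulldown and 502 to 717 in control pulldown, so these libraries did not overlap between genotypes with or without the partner. That order held for 4.92% of all genes in pulldown, and neither value passed the test between genotypes given below. mt-Nd4l, a small complex I subunit, had 45.2, 0, 0 and 176 counts in Lepr-deletion pulldown and 41.2, 0, 43.0 and 110 in control pulldown, and its sums with Gm10222 were 259 to 338 and 315 to 382. In input Gm10222 held most of that sum, as mt-Nd4l made up 9.69% to 17.4% of it in Lepr-deletion pools and 7.12% to 12.3% in control pools.

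**Figure D3:**
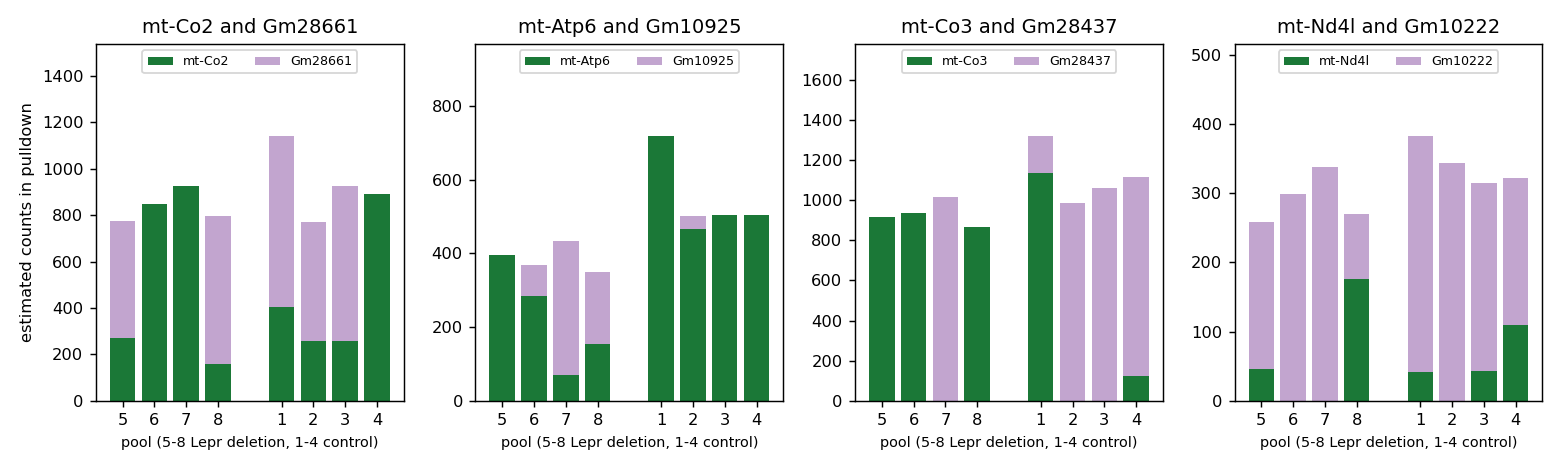
Estimated counts in the 8 pulldown libraries (Lepr-deletion pools 5 to 8 left, control pools 1 to 4 right) for 4 mRNA rows (green) stacked with their partner rows (violet). The filled share of the green row changes from library to library, from 0 to 100% for mt-Co3 among Lepr-deletion pools, while the height of the stack varies much less.

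With each pair summed, all 5 of these mRNAs lay within the range of the others, as some of the rows already did alone. On the row alone, their log2 fold changes of pulldown over input ran from -9.71 (mt-Atp6) to -7.54 (mt-Nd4l) in Lepr-deletion pools and from -9.80 (mt-Nd3) to -7.63 (mt-Nd4l) in control pools. Summed, mt-Nd4l was at -8.20 in Lepr-deletion pools and -8.30 in control pools, mt-Co3 at -8.26 and -8.45, mt-Nd3 at -8.40 and -8.70, mt-Co2 at -8.53 and -8.71, and mt-Atp6 at -8.99 and -8.87, with SEs between 0.076 and 0.14.

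The 22 tRNAs were few in these libraries, and short for this kind of library: their median effective length was 1.25% of that of mt-Rnr2. Summed over all tRNAs, counts were 9 to 18 per library in Lepr-deletion pulldown against 3083 to 3538 in Lepr-deletion input, and 11 to 32 in control pulldown against 3694 to 4717 in control input. mt-Ts1, the serine tRNA that lies past mt-Co1 and shares 3 bases with it, had 8, 10, 8 and 4 counts in Lepr-deletion pulldown against 2267, 2529, 2631 and 2553 in Lepr-deletion input. In control pools mt-Ts1 had 24, 12, 7 and 10 counts in pulldown against 3619, 2634, 3598 and 2839 in input. It held 74.5% ± 0.72 of tRNA counts in Lepr-deletion input and 74.9% ± 3.0 in control input, and it fell with a log2 fold change of -8.88 (SE 0.12, edgeR adjusted p = 3.32e-15) in Lepr-deletion pools and -8.54 (SE 0.20, adjusted p = 1.5e-11) in control pools.

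mt-Te, the glutamate tRNA beside mt-Nd6, was the next most counted, with 0, 1, 3 and 1 counts in Lepr-deletion pulldown against 244, 280, 313 and 318 in Lepr-deletion input, and 4, 1, 0 and 0 in control pulldown against 332, 385, 401 and 396 in control input. The tRNAs that passed the filter on low counts did so through their input libraries: 14 in Lepr-deletion pools and 16 in control pools, in all mt-Tf, mt-Tl1, mt-Ti, mt-Tq, mt-Tm, mt-Tw, mt-Ta, mt-Tn, mt-Tc, mt-Ty, mt-Ts1, mt-Tg, mt-Tr, mt-Th, mt-Tl2, mt-Te and mt-Tp. Their falls are therefore no further support for the class. No pulldown count was found for 7 of the 22 tRNAs in Lepr-deletion pools and 12 in control pools. Against the mean of the per-library limit of 3 counts, the 7 were at least 2.68-fold to at least 26.0-fold lower in Lepr-deletion pulldown, and 11 of the 12 at least 2.81-fold to at least 44.3-fold lower in control pulldown. mt-Ts2, with 3 counts over the 4 control input libraries, allowed no fold. Outside mt-Ts1, no tRNA had more than 6 counts over the 4 Lepr-deletion pulldown libraries or 5 over the 4 control ones, so differences between them there were not detectable at this depth.

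Lepr deletion was next compared with control within each fraction. In input, 5 of 33 tested members passed the test, where 0.231% of all genes did: mt-Nd3 rose, and Gm28438, mt-Atp6, mt-Rnr1 and mt-Rnr2 fell. Gm28438 passed the filter on low counts only through its control libraries, so its call adds no support to this count. Over all genes, 0.135% were called higher and 0.0959% lower.

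mt-Nd3 encodes a core complex I subunit (ENSMUSG00000064360, chromosome MT 9459 to 9806, 348 bases). It had 16390, 18423, 20264 and 19032 estimated counts in Lepr-deletion input (pools 5 to 8) against 6260, 4951, 6322 and 5457 in control input (pools 1 to 4). In CPM this was 312 ± 24 against 99.5 ± 8.0 (SD, n = 4 each), with all Lepr-deletion libraries above all control libraries. The log2 fold change was 1.65 (SE 0.066, edgeR adjusted p = 2.01e-08). It was the one mRNA row that passed the test as higher.

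Gm28438 (ENSMUSG00000101939) differed the other way. It had 0, 189, 61.5 and 178 estimated counts in Lepr-deletion input against 4237, 3209, 3569 and 3398 in control input, a log2 fold change of -5.13 (SE 0.41, edgeR adjusted p = 2.81e-05). The authors' deposited table gives this row a log2 fold change of -5.16 between the genotypes in input. mt-Nd3 held 99.0% to 100% of the counts of the pair in Lepr-deletion input and 59.6% to 63.9% in control input. The sums of the pair were 16390, 18612, 20325 and 19210 in Lepr-deletion input against 10497, 8160, 9891 and 8855 in control input. Summed, the pair was still higher with Lepr deletion, with a log2 fold change of 0.95 (SE 0.067, edgeR adjusted p = 9.75e-06).

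The same rows had much lower counts in pulldown, where no test between the genotypes passed with the filter and all libraries. mt-Nd3 had 55, 71, 109 and 81 counts in Lepr-deletion pulldown against 40, 0, 0 and 0 in control pulldown, and Gm28438 had 0 counts in every Lepr-deletion pulldown library against 0, 39, 35 and 27 in control pulldown. By group mean, Gm28438 was at least 7.84-fold lower in Lepr-deletion than in control pulldown, at the limit of 3 counts per library. This does not hold for every pool, since control pool 1 had 0 counts too. Gm28438 did not pass the filter on low counts in pulldown, and without the filter its edgeR adjusted p was 0.0222. mt-Nd3 missed the threshold (log2 fold change 3.06, SE 0.92, edgeR adjusted p = 0.112), and the control library of pool 1, the one with mt-Nd3 counts, decided this: without it the adjusted p was 0.00023 and that of Gm28438 was 0.0052. In the fit without that library, 262 genes were called higher and 294 lower of 17069. mt-Nd3 passed the filter only through its Lepr-deletion libraries in both fits, and Gm28438 in the second only through control libraries. Without pool 1, mt-Nd3 had 0 counts in every control library left, where Gm28438 held the counts of the pair. The p-values of both rows in that fit therefore add no support for a difference. The sums of the pair were 55 to 109 counts in Lepr-deletion pulldown and 27 to 40 in control pulldown. These did not overlap, as for 5.09% of all genes in this direction, and did not pass (log2 fold change 1.26, SE 0.26, edgeR adjusted p = 0.0545).

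**Figure D4:**
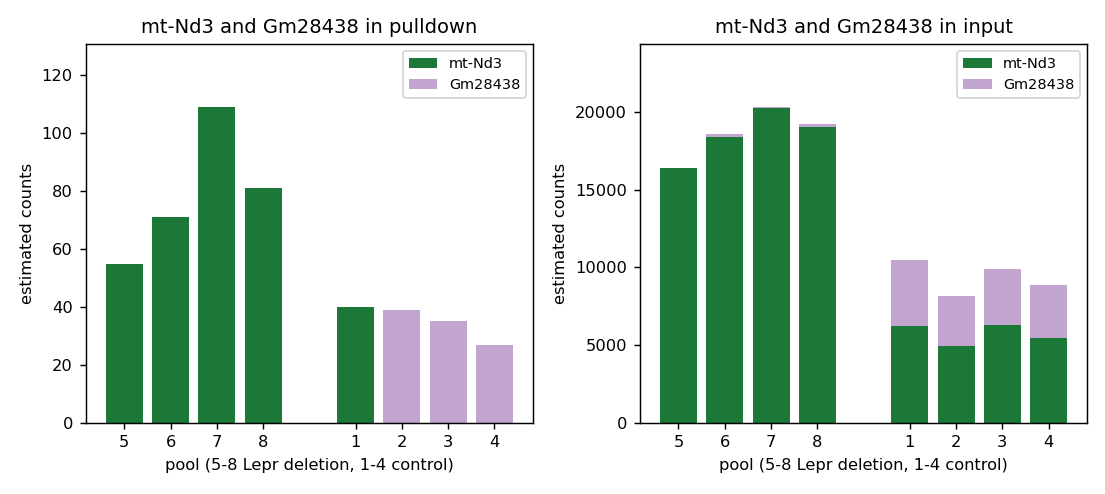
Estimated counts of mt-Nd3 (green) stacked with Gm28438 (violet) in pulldown and input, with Lepr-deletion pools 5 to 8 left and control pools 1 to 4 right. In both fractions the Lepr-deletion stacks are almost wholly mt-Nd3 and taller than the control stacks, which hold Gm28438 in every input library and in pulldown pools 2 to 4.

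mt-Tr, the arginine tRNA that starts 2 positions past the end of mt-Nd3 (chromosome MT 9808 to 9875), was the one tRNA with all Lepr-deletion libraries above all control libraries in input. It had 16, 24, 21 and 13 counts in Lepr-deletion input against 1, 5, 9 and 7 in control input, which did not pass the test (log2 fold change 1.69, SE 0.52, edgeR adjusted p = 0.196). In this comparison 4.05% of all genes had all Lepr-deletion libraries above all control libraries. mt-Tr passed the filter on low counts only through its Lepr-deletion libraries, so the order of its libraries adds no support. Of the other 16 tested tRNAs in input, all had negative log2 fold changes, from -0.86 to -0.07, and none passed the test.

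Of the other mitochondrial RNAs, mt-Atp6 and both rRNAs were slightly lower with Lepr deletion in input. mt-Atp6 had 2302, 2112, 2244 and 2165 CPM in Lepr-deletion input against 2895, 2819, 2720 and 2567 CPM in control input, and fell by 0.32 on the log2 scale (SE 0.043, edgeR adjusted p = 0.0058). With Gm10925 added, the value was again -0.32 (adjusted p = 0.00485). mt-Rnr1 fell by 0.20 (SE 0.034, adjusted p = 0.0278) and mt-Rnr2 by 0.24 (SE 0.040, adjusted p = 0.0233), with the input levels given above and no overlap between genotypes. Both rRNA calls rested on the libraries used: the adjusted p was between 0.071 and 0.14 without the input of Lepr-deletion pool 6, 7 or 8 for either rRNA, between 0.091 and 0.15 without that of control pool 2 or 3, and 0.059 for mt-Rnr2 without control pool 4. The calls of mt-Atp6 and both rRNAs were also lost with limma on TPM (adjusted p from 0.16 to 0.91) and with counts rescaled from TPM (0.051 to 0.16). With library totals in place of TMM, mt-Rnr1 no longer passed, while mt-Rnr2 and mt-Atp6 did (edgeR adjusted p = 0.0266 and 0.0224).

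With DESeq2, or with pools 1 and 5 left out, an alternative added once the data were known, 17 members passed in input, of which mt-Nd3 alone was higher. Calls over all genes also rose in these fits. With DESeq2, 205 genes were called higher and 181 lower of 17735. Without pools 1 and 5, 767 were called higher and 1190 lower of 17838, beside 24 and 17 in the main test. In the main test the remaining mRNA rows with negative values did not pass, from -0.17 (mt-Nd1, adjusted p = 0.150) to -0.32 (mt-Nd6, adjusted p = 0.0663), and mt-Nd4l was at 0.21 (adjusted p = 0.656). In all, 11 of 13 mRNA rows were negative, with a median over the 13 of -0.24 beside -0.00 over all genes. For 9 of the 13, all Lepr-deletion input libraries lay below all control libraries, where 2.82% of all genes did. With partner rows summed, mt-Co2 (-0.24, SE 0.038, edgeR adjusted p = 0.0166) and mt-Co3 (-0.36, SE 0.057, adjusted p = 0.0165) also passed as lower, and mt-Nd4l turned to -0.23 (adjusted p = 0.103). In the same input libraries, summed astrocyte markers were lower with Lepr deletion, at 2933 to 3166 CPM against 3217 to 3600 CPM in control, where Gja1 (-0.33, adjusted p = 0.00649) was the 1 of 10 that passed. By single marker, 5 of the 10 had positive and 5 had negative log2 fold changes, with a median of 0.00014. Summed oligodendrocyte, microglia and neuron markers overlapped between the genotypes in input, at the ranges given above. The part of astrocyte RNA in the lower mitochondrial values was not tested.

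In pulldown, 0 of 15 tested members passed between the genotypes by edgeR or DESeq2, where 0.641% of all genes did by edgeR. Before adjustment, 3340 of all 16859 genes tested had an edgeR p under 0.05, and so did 4 of the 15 members. Besides mt-Nd3 these were mt-Atp6 (-1.20, SE 0.37, adjusted p = 0.122), mt-Co1 (-0.26, SE 0.10, adjusted p = 0.194) and mt-Rnr2 (-0.25, SE 0.097, adjusted p = 0.194). With Gm10925 added, mt-Atp6 was at -0.43 (SE 0.13, adjusted p = 0.117). The library of Lepr-deletion pool 5 decided the call of mt-Atp6, whose adjusted p was 0.0238 without it. That fit called 631 genes higher and 631 lower of 17118. With pools 1 and 5 both left out, mt-Nd3, Gm28438, mt-Atp6 and mt-Co3 passed (adjusted p = 9.43e-05, 0.000568, 0.00637 and 0.0415). There 1581 genes were called higher and 1782 lower of 16918. mt-Nd3 and Gm28438 each passed the filter in that fit only through the genotype where they were counted, so their calls there add no support. All 4 Lepr-deletion libraries were below all control libraries for mt-Atp6 and above them for mt-Nd3, beside 4.92% and 5.09% of all genes in these directions. The order of mt-Nd3 adds no support, since it passed the filter only through its Lepr-deletion libraries. mt-Nd5 lay closest to 0, at -0.02 with a 95% interval from -0.15 to 0.10.

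**Figure D5:**
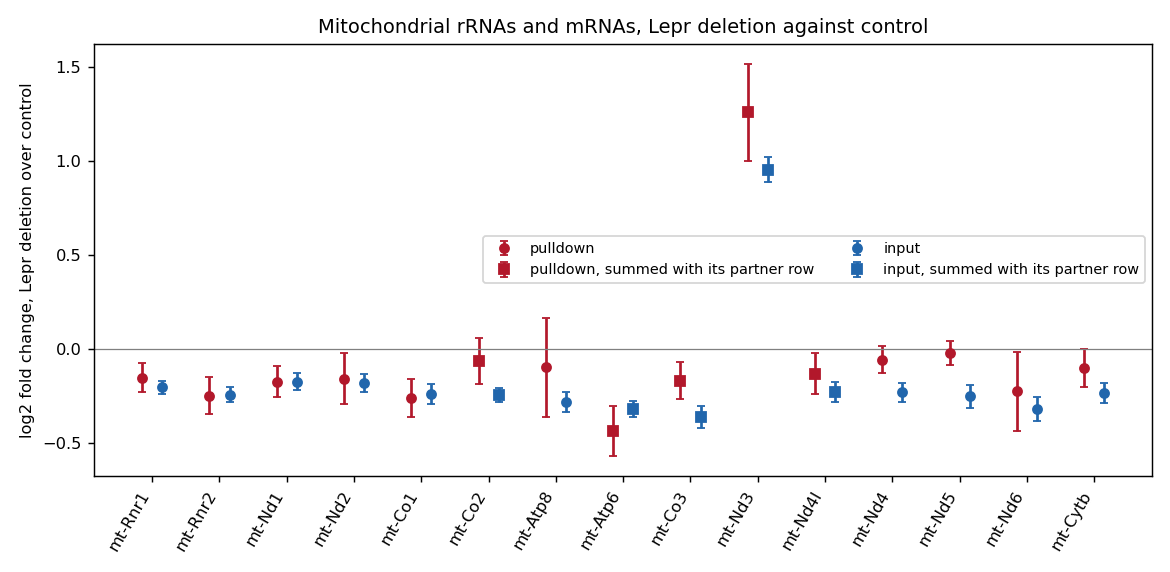
Log2 fold change of Lepr deletion over control (y axis) for both rRNAs and the 13 mRNAs, in pulldown and in input; bars are ± 1 SE of the edgeR fit and squares mark rows summed with a partner. Summed mt-Nd3 stands at 1.26 in pulldown and 0.95 in input, and the others lie between -0.43 and -0.02.

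The change of the pulldown-to-input ratio with genotype was tested directly. Of 33 tested members 0 passed by edgeR or DESeq2, beside 0.0108% of all genes by edgeR. Before adjustment, 1660 of all 18530 genes tested had an edgeR p under 0.05, and so did 4 of the 33 members. These were mt-Nd3 (1.39, SE 0.64), mt-Nd5 (0.22, SE 0.091), mt-Atp6 (-0.89, SE 0.35) and mt-Tc (2.54, SE 0.89), each with an adjusted p of 0.464 or more. The value of mt-Tc rested on 6 counts in all over the Lepr-deletion pulldown libraries and 1 over the control ones. Without the pulldown of control pool 1, mt-Nd3 passed (adjusted p = 0.00292), and without pools 1 and 5, mt-Nd3, mt-Nd4 and mt-Nd5 did (adjusted p = 0.00249, 0.0452 and 0.0467). Over all genes these fits called 2 higher and 1 lower of 18881, and 78 higher and 9 lower of 18633. In both fits mt-Nd3 had 0 counts in every control pulldown library left, so its calls there add no support. Summed with its partner, mt-Nd3 was at 0.29 (SE 0.23) and mt-Atp6 at -0.13 (SE 0.13). For mt-Rnr1 and mt-Rnr2 the 95% intervals ran from -0.14 to 0.21 and from -0.24 to 0.21.

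As a set, the nuclear genes that serve mitochondrial gene expression did not share the loss from pulldown. Of 86 such genes in 8 lists, 42 rose and 12 fell in Lepr-deletion pools, and 42 rose and 11 fell in control pools, with medians of 0.20 and 0.22. The lowest of the 86 values was -1.64 in Lepr-deletion pools and -2.06 in control pools. Higher calls were made for 28.8% of all genes in Lepr-deletion pools and 30.1% in control pools, and lower calls for 32.8% and 34.6%. These directions are relative to the TMM scale: with library totals in its place, 10002 genes were called higher and 3436 lower in Lepr-deletion pools (5026 and 5714 with TMM), and 10707 higher and 3338 lower in control pools (5297 and 6084 with TMM). Between the genotypes none of the 86 passed by edgeR in pulldown, in input or in the change of the ratio.

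By role, 7 of 9 genes for proteins that stabilise and polyadenylate mitochondrial RNA were higher in pulldown in Lepr-deletion pools and 6 of 9 in control pools, and none was lower. Among them were Grsf1, an RNA-granule protein (0.49 and 0.57, SE 0.045 each), and Slirp and Lrpprc, which form a complex that protects mitochondrial mRNAs (0.49 and 0.60 for Slirp, 0.37 and 0.32 for Lrpprc). Of 12 genes for rRNA modification and ribosome assembly, 9 rose in Lepr-deletion pools, and 10 rose and 1 fell in control pools. Examples were Mtg1, an assembly GTPase (0.45 and 0.54), and Dhx30, a helicase (0.30 and 0.19).

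Of 13 RNA-processing genes, 8 rose and 1 fell in Lepr-deletion pools, and 5 rose in control pools, among them Trmt10c, a subunit of mitochondrial RNase P (0.40 and 0.42), and Trnt1, which adds the tRNA end (0.42 and 0.37). Of 9 transcription genes, 5 rose and 3 fell in each genotype: Tfam, which packages and transcribes the genome, was at 0.22 and 0.32, and Mterf1a, a termination factor, at -1.38 and -1.22. Of 9 replication genes, 1 rose and 2 fell in Lepr-deletion pools and 3 rose and 2 fell in control pools, with the ligase Lig3 at -0.57 and -0.63. Of 4 decay genes, 1 rose and 1 fell in Lepr-deletion pools, and 1 rose and none fell in control pools. Pde12, which removes poly(A), rose in both genotypes (0.39 and 0.18), and Rexo2, an oligoribonuclease, fell in Lepr-deletion pools (-0.16) and was at 0.08 in control pools.

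Translation factors were divided, with 4 of 13 higher and 2 lower in Lepr-deletion pools and 6 higher and 2 lower in control pools. Tufm, the elongation factor that delivers tRNAs, was at 0.25 and 0.41, and Guf1, a back-translocating elongation factor, at -0.88 and -0.96. Of 17 aminoacyl-tRNA synthetases, 7 rose and 3 fell in Lepr-deletion pools and 6 rose and 3 fell in control pools, from Yars2 at 0.78 and 0.83 to Lars2 at -1.64 and -1.50. The fall of Lars2, the lowest of these synthetases, was still far smaller than that of any mitochondrially encoded mRNA or rRNA.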

How the data were processed

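RNA from 8 pools of hypothalamus was measured as 8 pulldown and 8 input libraries. Per the submitters' processing notes, the authors used Salmon 1.10.1, DESeq2 1.38.3 and the GRCm38 build. The deposited tables hold estimated counts per gene, TPM per gene, effective lengths (other values, in bases) and the authors' log2 fold changes with adjusted p-values. Salmon assigns reads that fit several transcripts by estimation, so counts of near-equal rows are uncertain.

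Estimated counts were rounded and tested with edgeR 4.0.16 (TMM, filterByExpr with a minimum count of 10 and total of 15, glmQLFTest, only the libraries compared; all 16 for the change of ratio) in R 4.3.3. A log2 change divided by the square root of its F gave the SE, and 1.96 SE the 95% interval. Alternatives used DESeq2 1.42.0 and limma 3.58.1 on log2(TPM + 1) or log2(TPM + 0.1). The edgeR step was tested on simulated data.

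Pools with one number come from one lysate in pulldown and input, per the labels' protocols. Deviations of same-numbered libraries correlated between -0.00 and 0.18, and adding the pool as a block changed no call of a member. Within a group, counts differed by more than sampling noise (chi-square per degree of freedom 8.16 to 49.9). Whether pools of a group share litters is not stated, so p-values measure the spread between these pools.

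The members and lists were chosen with earlier results of these data known. Named were all mRNAs, rRNAs, Gm28438, tRNAs passing the filter, and up to 4 genes per nuclear list with the smallest p. A rule on rows within 10 kb of Gm28438 could not be applied, since that row has no position. Positions are from RefSeq GRCm38.p6 for 37 of 38 members.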

Additional observations from a re-analysis of the deposited data

Results flagged for a closer look

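Of 63 groups of 4 libraries checked among members with enough counts, 6 held a library far from the other 3, and chance gives about 1 in 20. mt-Nd3 had 0.459 CPM in the pulldown of control pool 1 and 0 in the other 3 control pools. mt-Co3 had 0 CPM in the pulldown of Lepr-deletion pool 7, against 10.2 to 11.4 CPM in the other 3. In control pool 1, mt-Co3 stood high in pulldown (13.04 CPM, next highest 1.33 CPM) and in input (2084 CPM, next highest 1869 CPM). mt-Atp8 had 0.801 CPM in the pulldown of Lepr-deletion pool 7, against 0.422 to 0.461 CPM in the others. Gm28438 had 74.3 CPM in the input of control pool 1, against 57.7 to 60.1 CPM in the others. For mt-Nd3 and mt-Co3 in pulldown, the partner row held the counts in the libraries at 0.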

How the results depend on the processing

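Of 2075 values of single members recomputed under other settings, 1970 kept their direction and their side of the threshold, 62 newly passed, 23 no longer passed and 20 reversed. All values of pulldown against input stayed called, also with the pool as a replicate block (29 members lower with Lepr deletion and 32 in control). Over all genes, the block moved the calls for the change of ratio from 1 higher and 1 lower to 1 higher and 3 lower. A minimum mean of 1 CPM left 17 and 18 lower members, since fewer were tested, and leaving out 1 library gave 29 to 30 and 32.

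In input between genotypes, the 5 calls became 14 without a filter, 17 with DESeq2, 2 and 1 with limma on log2(TPM + 1) and log2(TPM + 0.1), 1 with counts rescaled from TPM, 17 without pools 1 and 5 and 3 to 15 without 1 library (3 without pool 2, 3, 6, 7 or 8, 14 without pool 1, 15 without pool 5). Over all genes, the input calls were 139 higher and 122 lower without a filter and 205 and 181 with DESeq2. They were 21 and 1, and 20 and 0, with limma in the same order, and 10 and 1 with rescaled counts. Without pools 1 and 5 they were 767 and 1190, without pool 1 156 and 246, and without pool 5 115 and 222. Without pool 2, 3, 6, 7 or 8 they were 13 to 18 and 6 to 14. Gm28438 had an adjusted p of 0.069 with limma on log2(TPM + 0.1) and 0.16 with rescaled counts, and mt-Rnr1 no longer passed with library totals. In pulldown, 0 became 1 without a filter, 4 without pools 1 and 5 and 0 to 2 without 1 library (2 without pool 1 or pool 5). Over all genes, 66 higher and 42 lower calls became 136 and 130 without a filter and 1581 and 1782 without pools 1 and 5. They became 262 and 294 without pool 1 and 631 and 631 without pool 5. For the change of ratio, 0 became 3 without pools 1 and 5 and 0 to 1 without 1 library. Over all genes it had 78 higher and 9 lower calls without pools 1 and 5. The causes were not tested.

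No reversed value was called. Between genotypes in pulldown, these were mt-Nd4l (-0.50 and -1.28 with limma at the larger and smaller pseudocount, -0.13 with partner rows summed, -1.63 to 1.15 without 1 library), mt-Co2 (-0.062 summed, -0.056 to 0.89 without 1 library), mt-Co3 (-0.17 summed), mt-Nd5 (0.020 without pools 1 and 5, -0.056 to 0.014 without 1 library), mt-Cytb (0.033 without pools 1 and 5, -0.17 to 0.0029 without 1 library), mt-Nd4 and mt-Nd6 (both 0.033 without pools 1 and 5). In input they were mt-Nd4l (-0.23 summed, -0.061 without pools 1 and 5, -0.055 to 0.35 without 1 library), mt-Tq (0.022 with limma at either pseudocount) and mt-Ta (-0.32 to 0.0057 without 1 library).

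Shares and ratios from TPM in place of counts moved, since TPM divides by length, but kept the order of the fractions. In Lepr-deletion pulldown, Lepr-deletion input, control pulldown and control input, rRNA was 0.153%, 37.2%, 0.170% and 40.3%, mRNA 0.0439%, 6.75%, 0.0453% and 7.28%, and tRNA 0.00237%, 0.423%, 0.00287% and 0.512%. The mt-Rnr1 to mt-Rnr2 ratio was 3.70, 1.58, 3.47 and 1.53, that of mt-Nd6 to mt-Nd5 0.324, 0.727, 0.368 and 0.761, and that of mt-Atp8 to mt-Atp6 1.89, 0.585, 0.504 and 0.571. The 1.89 rested on pool 7 (5.17; mean without it 0.795), where Gm10925 held most of the pair, and with Gm10925 added the count ratio in Lepr-deletion pulldown was 0.0937 to 0.160. With library totals the median of all genes for pulldown against input was 0.44 with Lepr deletion and 0.53 in control, against -0.01 and -0.02 with TMM. Few pulldown counts limit mt-Atp8, mt-Nd3, Gm28438 and the tRNAs.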
